A study of Mus musculus with 12 samples.

Results

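The response of WT macrophages to LPS plus IFNγ was read from 4 of the 12 arrays of the series, 2 of M1-BMDMs and 2 of untreated BMDMs, which were chosen by the titles of the arrays and paired by culture. BMDMs are macrophages grown from bone marrow, here for 7 days with 20 ng per ml of M-CSF, the growth factor of the lineage, which had been withdrawn several hours before the stimulus. The mice were C57BL/6 and 8 weeks old, and by the description of the series each of 2 independent cultures took its samples from 1 KpCKO and 1 WT mouse. The labels give males for culture 1 and females for culture 2. M1 cells were given LPS at 5 ng per ml together with IFNγ at 10 ng per ml for 6 h, and Con cells received neither. The model also held WT M2 cells, stimulated with IL-4, and the Con, M1 and M2 cells of KpCKO mice, in which LysM-Cre, active in myeloid cells, deletes floxed *Keap1*. Whether the WT mice carried a floxed allele or Cre is not given in the sources used here. The arrays of each stimulus lay on a slide of their own, so that stimulus and slide cannot be told apart.

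LPS is a wall component of Gram-negative bacteria that is sensed by Toll-like receptor 4 (TLR4), which acts through MyD88 and TRIF on NF-κB and on interferon regulatory factors. IFNγ is a lymphocyte cytokine that signals through JAK kinases. Both together are the classical stimulus for the M1 state, known for inflammatory cytokines, interferon-induced defence and antigen presentation. The genes that the stimulus lowered are given first here.

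Each array gives 1 background-subtracted intensity per probe, and a level below is log2 of that intensity minus the 75th percentile of its array, so that a level has a meaning only against the same gene on another array. The 75th percentile was 1143 and 1023 on the Con arrays and 757 and 548 on the M1 arrays, and 70.6% and 67.8% of probes gave a signal well above background in Con against 59.4% and 66.2% in M1. Spike-in RNAs stood 2.54 and 2.55 above the 75th percentile in Con and 2.66 and 2.63 in M1, on the log2 scale. All 7 macrophage markers measured, among them *Csf1r*, *Adgre1* and *Cd14*, were well above background on the 4 arrays. The log2 of their sum was 9.19 and 9.32 in Con and 9.70 and 10.02 in M1. Such a sum is taken on the linear scale and is set mostly by the brightest markers. *Csf1r*, the M-CSF receptor, with a log2 difference of −0.34 (limma, adjusted p = 0.083), and *Lyz2*, lysozyme, with −0.64 (adjusted p = 0.079), did not pass the test. Of 10 neutrophil markers, 7 were well above background on all 4 arrays, and the log2 of the sum of all 10 was 4.12 and 3.06 in Con and 3.72 and 3.34 in M1. Among them *Ltf*, *Retnlg* and *Mmp8* were lower and *Camp* was higher by limma's test. All 4 fibroblast markers were above background on the 4 arrays, and the log2 of their sum was 5.05 and 5.28 in Con and 4.99 and 4.89 in M1. For 6 T cell markers the log2 of the sum was −2.79 and −2.83 in Con and 1.27 and 1.68 in M1. *Lck* was above background on all 4 arrays, *Cd3e*, *Cd3g* and *Cd2* on some, and *Cd3d* and *Cd8a* on none. For 4 endothelial markers the log2 of the sum was 0.28 and −0.14 against 2.73 and 3.54. *Cdh5* and *Kdr* were above background on all 4 arrays, and *Tie1* and *Tek* on none. *Lck* and *Kdr* made up the higher sums, and *Cd3e* had no value on 1 M1 array, where its spot was an outlier. Of 5 dendritic cell, 5 B cell, 4 mast cell and 4 erythroid markers, 2, 2, 1 and 1 were above background on all 4 arrays. For none of these lists was the log2 of the sum above −0.76. The part of other cell types in the results was not tested, and in such bulk samples fewer cells of a type and less RNA per cell cannot be told apart.

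After 6 h, 6410 of 22356 genes were lower in M1 than in Con (28.7%) and 7722 were higher (34.5%), by limma at an adjusted p of at most 0.05. A stricter rule is used below for genes said to have fallen or risen more than 2-fold: they passed limma's test, differed by more than 2-fold in each culture, and exceeded background clearly on both arrays of whichever group was higher. It was met by 3194 falls (14.3%) and 3164 rises (14.2%), of which 2277 and 2112 have a gene symbol. The median fall was −1.83 on the log2 scale and the median rise 1.97, or −1.67 and 1.94 with genes at background in the lower group set at their bound. Their balance depends on the scaling: the median of all genes tested was 0.13, and it was −0.08 under quantile normalization and 0.03 with the spike-ins as the reference. Of the falls, 3092 were also lower under each of 5 other scalings, and 3027 of the rises were higher, but 1850 falls and 1764 rises passed the 2-fold rule itself under every scaling.

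Falls and rises had near-equal numbers, but the rises reached further. Of the 17648 genes detected on all 4 arrays, 2402 fell and 2843 rose more than 2-fold, 902 and 1265 more than 4-fold, 269 and 605 more than 8-fold, and 32 and 145 more than 32-fold. A further 237 falls were above background on 1 M1 array and 555 on neither, where a fall can only be bounded and the bound exceeds 2-fold for 244 genes. All 205 rises from background on both Con arrays had a bound above 2-fold, but the rule and the array floors almost fixed this outcome. The lowest detected level was −7.00 and −6.87 on the Con arrays and −5.58 and −6.01 on the M1 arrays. Falls were thus bounded at a higher floor, which also limits how far a fall can be measured. The counts of bounds in the 2 directions cannot be compared. Several probes were detected for 829 of the genes that fell, and every one of them was lower by more than 2-fold for 613 genes, while for 49 genes a probe was not lower.

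The largest measured fall was that of *Rasgrp3*, an exchange factor that activates Ras, whose log2 level was 2.10 and 2.06 in Con and −4.68 and −5.09 in M1. The difference was −6.96 (SE 0.24, limma, adjusted p = 4.5e-06). *Zdhhc14*, a palmitoyltransferase, stood at 2.06 and 2.35 in Con and at −4.66 and −4.29 in M1 (difference −6.69, SE 0.14). *Arhgap18*, a GTPase-activating protein, went from 2.08 and 1.92 to −4.18 and −4.72 (difference −6.45, SE 0.24). The 20 largest falls, which were picked by size on these arrays, had adjusted p values between 1.9e-06 and 0.0012.

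Receptors for migration cues were among them. *Gpr183*, the receptor for oxysterols that guide immune cells, had log2 levels of 2.57 and 2.61 in Con and −4.004 and −3.64 in M1, a difference of −6.41 (SE 0.13). *Cxcr4*, the receptor for CXCL12 that holds cells in bone marrow, had 2.39 and 2.42 in Con and −3.38 and −3.95 in M1, a difference of −6.07 (SE 0.47). *Slco2b1*, a transporter of organic anions, was uneven between the cultures, with 1.42 and 1.49 in Con and −2.37 and −5.54 in M1 (difference −5.41, SE 0.83).

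Several of the 20 act on lipids or sugar chains. *Cerk*, ceramide kinase, had log2 levels of 4.42 and 4.13 in Con and −1.77 and −2.24 in M1, and its difference was −6.28 (SE 0.35). *Lpin1*, a phosphatidate phosphatase of triglyceride synthesis, went from 0.61 and 0.77 to −4.44 and −4.90 (difference −5.36, SE 0.26). *St6gal1*, which adds sialic acid to glycoproteins, went from 2.10 and 2.41 to −4.14 and −3.27 (difference −5.96, SE 0.36), with −2.12 by its other probe. These enzymes were joined by *Gcnt1*, which branches mucin-type sugar chains, at a difference of −5.65, and by *Nat8l*, which makes N-acetylaspartate, at −5.76.

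*Bmf*, a BH3-only protein that promotes apoptosis, had levels of 2.40 and 2.66 in Con and −4.31 and −4.09 in M1, a difference of −6.74 (SE 0.28) on the brightest of 3 detected probes, whereas the least changed probe had 0.40. Its fall is therefore uncertain at the level of the gene. *Tmem37* fell by 6.41 on the log2 scale and *Slc26a11*, an anion transporter, by 6.03. *Cdk20*, a kinase, had −5.72, *Otulinl* −5.43, *Rnf150* −5.33 and *Ypel3* −5.29. Under IL-4, *Zdhhc14* (−1.19), *Arhgap18* (−1.94) and *Rnf150* (−2.07) were also lower than in Con by limma's test and *Gpr183* was higher (0.79). M2 and M1 were compared with the same Con arrays.

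**Figure D1:**
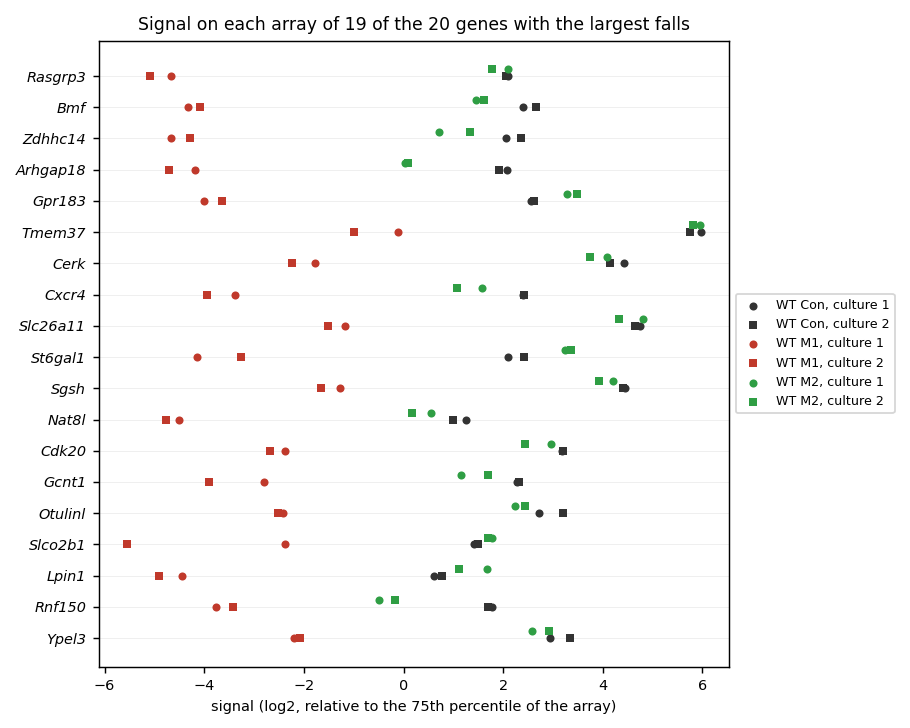
Log2 level relative to the 75th percentile of the array (horizontal axis) of 19 of the 20 genes with the largest falls on each WT Con, M1 and M2 array, with circles for culture 1 and squares for culture 2. The genes were picked by the size of their fall on these Con and M1 arrays, which all but fixes that the 2 groups lie apart. The M1 arrays lie far from each other for *Slco2b1* (−2.37 and −5.54).

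For genes that reached background on both M1 arrays the size of the fall is a lower bound. *Zfyve28*, a FYVE-domain protein of endosomes, had log2 levels of 1.36 and 1.51 in Con and was at least 150-fold lower in M1. *Rnf144b*, a ubiquitin ligase, was at least 45.1-fold lower, *Zfp395* at least 38.3-fold and *Cnnm2*, linked to magnesium transport, at least 32.7-fold. *Arhgap19*, another GTPase-activating protein, was at least 31.8-fold lower by its brightest probe, while its least changed probe had a log2 difference of −0.69.

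Of 24 macrophage transcription factors, 7 were lower (29.2%) and 11 higher (45.8%), against 28.7% and 34.5% of all genes. The 4 that fell more than 2-fold made up 16.7%, near the 14.3% of all genes. Among these were *Cebpa*, a master regulator of myeloid cells, with log2 levels of 3.57 and 3.23 in Con and −1.17 and −1.81 in M1 (difference −4.89, SE 0.24), and *Pparg*, a nuclear receptor for fatty acids, with 3.20 and 3.34 against −1.58 and −1.60 (difference −4.86, SE 0.20). *Mef2c* fell by 2.46, from 1.36 and 1.66 to −1.33 and −0.56, and its relative *Mef2a* was lower at −0.80. The other way, *Irf8*, which acts in interferon responses and in the monocyte lineage, rose from 4.73 and 4.73 to 8.10 and 8.03 (difference 3.33). *Spi1*, the gene of PU.1, rose by 1.43 and *Cebpb* by 1.53, and both were picked after their values were seen. Thus members of the C/EBP family went in opposite directions.

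Of 32 G protein-coupled receptors, 11 were lower (34.4%) and 13 higher (40.6%), against 28.7% and 34.5% of all genes. There were 10 falls (31.25%) and 9 rises (28.1%) of more than 2-fold, against 14.3% and 14.2%. Next to *Gpr183* and *Cxcr4*, the falls, named after their values were seen, included *Cx3cr1*, the fractalkine receptor of monocytes, from 0.81 and 1.91 to −3.67 and −3.90 (difference −5.14), and *S1pr1*, a receptor for sphingosine 1-phosphate, from 2.73 and 2.17 to −1.20 and −0.92 (difference −3.51). *C3ar1*, the receptor for complement C3a, had −3.28, *Lpar6*, for lysophosphatidic acid, −3.19 and *Ptger2*, for prostaglandin E2, −2.19. The 4 with the largest rises were *Fpr2*, for formyl peptides (7.39), *Hcar2*, for nicotinic acid (5.89), *Lpar1* (5.85) and *Gpr84*, for medium-chain fatty acids (5.58). Receptors for the same ligand, *Lpar1* and *Lpar6*, thus moved apart.

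The main receptors of the stimulus were lower. *Tlr4* went from 2.66 and 2.61 in Con to 0.97 and 0.84 in M1 (difference −1.73, SE 0.12, adjusted p = 3.9e-05). *Ifngr1*, the ligand-binding chain of the IFNγ receptor, went from 5.57 and 6.13 to 4.97 and 4.75 (difference −0.99, SE 0.19, adjusted p = 0.0036), which is less than 2-fold in culture 1, while its partner *Ifngr2* had 0.27 (adjusted p = 0.059). Of the proteins that hand LPS to TLR4, *Ly96*, named after its value was seen, was lower at −0.60 and *Cd14* rose by 1.28. In the list of 20 Toll-like receptors and adaptors, 6 were lower (30.0%) and 8 higher (40.0%), near the 28.7% and 34.5% of all genes. *Tlr8*, a sensor of RNA, fell by 1.41, while *Tlr1* (2.96) and *Tlr6* (2.83), which pair with TLR2, and the adaptors *Myd88* (2.81) and *Irak2* (2.17) rose.

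Among 24 cytokine receptors, 6 were lower and 11 higher, and their median of 0.35 became −0.04 under quantile normalization and −0.02 after normexp. *Il6ra*, which binds IL-6, fell from 0.97 and 0.84 to −1.55 and −2.01 (difference −2.69), and *Il10rb*, a shared chain of the IL-10 receptor, from 5.95 and 5.95 to 4.76 and 4.51 (difference −1.31). *Il15ra*, which presents IL-15, rose by 5.02, *Il2rg*, the common γ chain, by 3.25 and *Il13ra1* by 2.53. Of 17 Fc receptors and integrins, 12 were higher (70.6%) and 2 lower (11.8%), against 34.5% and 28.7% of all genes. *Itga6*, a laminin-binding integrin, fell from 2.87 and 2.70 to −0.45 and −0.74 (difference −3.38), and *Fcgrt*, the neonatal Fc receptor, was lower at −0.95. *Fcgr4* (4.56), *Itgal* (3.66) and the inhibitory *Fcgr2b* (2.61) rose.

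Genes for scavenging and the uptake of dead cells were divided, with 9 of 22 lower and 11 higher, and their median of 0.24 became −0.37 under quantile normalization and −0.26 after normexp. *Itgb5*, an integrin chain in uptake of apoptotic cells, fell from 7.35 and 7.20 to 4.76 and 4.70 (difference −2.54). *Gas6*, a bridge between dead cells and TAM receptors, fell from 6.80 and 6.40 to 4.46 and 4.25 (difference −2.24), although its receptor *Mertk* rose by 2.13. *Lrp1* (−1.74), *Cd93* (−1.59) and *Scarb1* (−1.43), the last picked after its value was seen, fell as well. Scavenger receptors of bacteria and oxidized lipoproteins, *Marco* (6.25) and *Olr1* (6.69), rose.

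Genes of DNA replication and DNA repair were mostly lower. Of 31 replication genes, 23 were lower and 5 higher, and 19 fell more than 2-fold, against 28.7% and 14.3% of all genes. The median was −1.27 and lay between −1.47 and −1.16 under the other scalings. Each of the 6 subunits of the MCM helicase, which opens DNA at replication forks, fell by more than 2-fold: *Mcm2* by 2.92, *Mcm6* by 2.29, *Mcm7* by 1.85, *Mcm4* by 1.72, *Mcm3* by 1.24 and *Mcm5* by 1.24 (the last 4 named after their values were seen). Of these, *Mcm6* had the smallest error, with log2 levels of 4.68 and 4.31 in Con and 2.30 and 2.11 in M1 (SE 0.10, adjusted p = 6.9e-06). *E2f2*, an activator of S-phase genes, fell from 1.55 and 1.68 to −2.40 and −2.21 (difference −3.92). Its relative *E2f1*, named after its values were seen, fell from 0.52 and 0.60 to −1.68 and −5.87, of which the last was not well above background. *Chaf1b*, of the complex that places histones on new DNA, fell by 2.41, *Pola1*, the catalytic subunit of the polymerase that starts DNA strands, by 2.16, and *Prim1*, its primase, by 2.20, the last 2 named after their values were seen. Against this trend, *Ccne1*, cyclin E1, rose by 1.20 and *Rfc3*, a clamp loader subunit, was higher by 1.07.

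Promoters of this list held the E2F-type motif TTTNGCGC more often than promoters overall. It was searched on both strands in RefSeq windows (build GRCm38.p6) of 300 bases, 250 before and 50 after the start, and it occurred in 9 of 25 matched replication genes and in 2.2% of 11676 genes tested. Over all genes that fell more than 2-fold the share was 2.73% of 1833, and over all that rose 1.68% of 1668, so the falls as a whole did not carry it to the degree of this list. In the sequences shown, from which a chromosome was left out, the motif is in capitals, where matches may overlap on opposite strands. Outside that chromosome, the promoters below had the largest falls of the list among genes with the motif in the 250 bases before the start. They are *Mcm6* at chr1:128359706-128359955 (minus strand), *Pola1* at chrX:93632156-93632405 (minus strand) and *Mcm5* at chr8:75109259-75109508 (plus strand).
Mcm6: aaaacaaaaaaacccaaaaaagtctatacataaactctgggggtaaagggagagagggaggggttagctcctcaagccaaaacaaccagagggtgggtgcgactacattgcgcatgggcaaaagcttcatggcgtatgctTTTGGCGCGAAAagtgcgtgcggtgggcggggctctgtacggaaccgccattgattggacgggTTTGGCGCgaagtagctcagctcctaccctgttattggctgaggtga
Pola1: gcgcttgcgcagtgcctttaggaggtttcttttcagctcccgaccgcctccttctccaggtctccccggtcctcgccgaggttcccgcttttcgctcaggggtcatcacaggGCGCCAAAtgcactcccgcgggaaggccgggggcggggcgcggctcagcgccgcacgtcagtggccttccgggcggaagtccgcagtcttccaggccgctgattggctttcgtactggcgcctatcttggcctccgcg
Mcm5: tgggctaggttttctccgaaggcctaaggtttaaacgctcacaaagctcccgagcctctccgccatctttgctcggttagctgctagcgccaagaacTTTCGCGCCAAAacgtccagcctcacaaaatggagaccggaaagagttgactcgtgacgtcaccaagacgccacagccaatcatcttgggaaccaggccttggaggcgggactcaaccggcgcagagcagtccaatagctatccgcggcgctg
*Mcm6* holds 3 matches, *Mcm5* 2 and *Pola1* 1, and in *Mcm6* and *Mcm5* a pair of them overlaps on opposite strands. A match is a run of letters and was not tested as a site.

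Of 27 DNA repair genes, 16 were lower (59.3%) and 3 higher, with a median of −1.16. By the 2-fold rule 14 fell (51.9%) and none rose, against 28.7% lower and 14.3% fallen among all genes. *Msh6*, of mismatch repair, fell by 1.80 and was named after its value was seen. *Xrcc6*, the Ku70 subunit that binds broken ends, fell from −0.95 and −0.54 to −3.72 and −3.74 (difference −2.98), *Parp1*, a sensor of strand breaks, from 2.19 and 2.47 to −0.18 and 0.13 (difference −2.36), and *Xpc*, the damage sensor of nucleotide excision repair, by 2.16. *Polb*, the polymerase of base excision repair (0.79), and *Ercc2*, a helicase of excision repair (0.45), were higher.

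Mitosis genes were divided, with most of those that changed lower. Of 23 measured, 14 were lower (60.9%), 13 of them by more than 2-fold (56.5%), against 28.7% and 14.3% of all genes. The list had 4 rises of more than 2-fold and a median of −1.38. *Kif23*, a kinesin of cytokinesis, fell from −0.27 and −0.58 to −3.52 and −3.51 (difference −3.09), *Aurkb*, Aurora B kinase, by 2.81 and *Bub1b*, of the spindle checkpoint, by 2.61. The proliferation marker *Mki67* went the other way, from 1.53 and 1.26 to 4.09 and 4.05 (difference 2.68, SE 0.31). *Tpx2*, a spindle assembly factor, rose by 2.49. *Bub1* rose by 1.65 on its brighter probe, while its other probe had −2.04, and the mean of both was −0.19. The E2F-type motif was in 1 of 18 matched promoters.

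In KpCKO cells the medians of these lists were −1.28 for replication, −1.20 for repair and −2.07 for mitosis. There 24 of 31, 19 of 27 and 18 of 23 genes were lower, against 25.4% of all genes. In M2 cells, set against the same Con arrays as M1, the medians were −0.16, −0.02 and −0.23. *Mcm2* and *Mcm6* had differences of 0.41 and 0.00 under IL-4, and *Xrcc6* had 0.30.

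**Figure D2:**
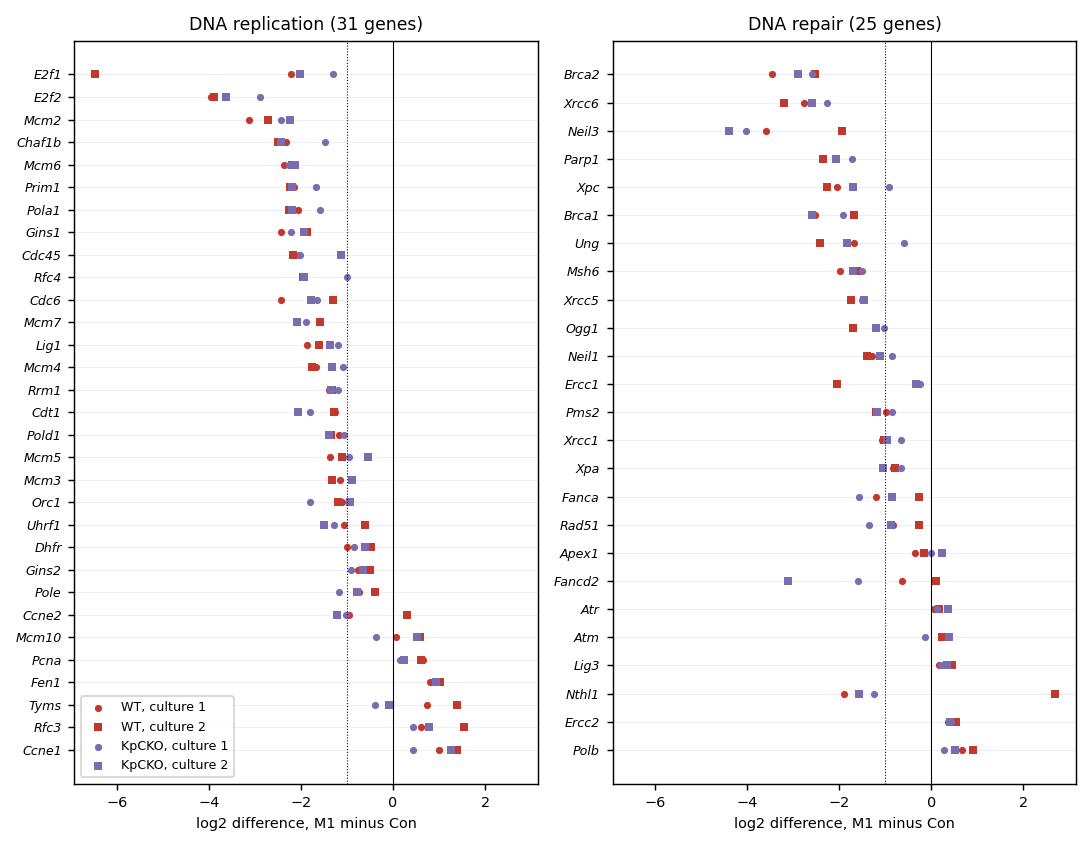
Log2 difference between M1 and Con (horizontal axis) in each culture of WT and KpCKO cells for the 31 genes of the DNA replication list and 25 of the 27 of the DNA repair list, with circles for culture 1, squares for culture 2 and a dotted line at a 2-fold fall. Most genes lie below 0, among them *E2f2* (mean −3.92 in WT) and *Xrcc6* (−2.98), while *Ccne1* (1.20) lies above it, and the WT cultures are far apart for *E2f1*.

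Of 28 genes of fatty acid oxidation and peroxisomes, 18 were lower and 4 higher, and 11 fell and 2 rose more than 2-fold, where 28.7% of all genes were lower and 14.3% fell by that much. The median was −0.51, or −0.86 under quantile normalization. *Hadh*, which acts on short chains in mitochondria, had log2 levels of 1.84 and 1.79 in Con and −0.41 and −0.81 in M1 (difference −2.42, SE 0.17). *Acaa2*, a thiolase, fell by 2.06 and *Echs1*, a hydratase of the same cycle, by 1.82. Further falls, picked after their values were seen, were those of the dehydrogenases *Acadm* (−1.51) and *Acads* (−1.47) and of *Etfdh*, which passes their electrons on (−1.41). The peroxisomal *Ehhadh* (named likewise) reached background on both M1 arrays, at least 5.81-fold lower. *Eci2*, an isomerase, rose by 1.38, *Hadhb* was higher by 0.70, and the coactivator *Ppargc1b* rose by 3.23 and had 3.11 under IL-4.

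In the list of 20 TCA cycle genes, 7 were lower and 5 higher, and the median of 0.03 became −0.49 under quantile normalization, −0.07 with spike-ins and −0.50 after normexp. Isocitrate dehydrogenases were among the falls: *Idh1*, of the cytosol, went from 1.78 and 1.97 to −2.10 and −1.89 (difference −3.87, SE 0.15), *Idh2*, of mitochondria, from 1.46 and 1.29 to −0.49 and −0.68 (difference −1.96) and *Idh3g*, a subunit of the cycle's own enzyme, fell by 1.30. *Idh3a*, its catalytic subunit, named after its value was seen, had 0.25 and did not pass the test. *Suclg2*, of succinyl-CoA ligase, fell by 1.80. *Acod1*, which turns the cycle's aconitate into itaconate, rose from −0.27 and 0.64 to 9.19 and 9.90 (difference 9.36, SE 0.28). Of 27 respiratory chain genes, 11 were higher (40.7%) and 3 lower (11.1%), against 34.5% and 28.7% of all genes. However, their median of 0.21 was −0.35 under quantile normalization and −0.34 after normexp. The 44 genes with the stem *Nduf*, of complex I and its assembly, gave the other balance. Of these, 15 were lower (34.1%) and 4 higher (9.09%), with a median of −0.11. *Cycs*, cytochrome c, rose by 1.94.

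In the cholesterol list, 8 of 23 genes were higher (34.8%) and 5 lower (21.7%), against 34.5% and 28.7% of all genes. The median of −0.04 was 0.02 under median scaling. *Dhcr7*, the last enzyme of the pathway, fell from 1.95 and 1.88 to −1.25 and −1.41 (difference −3.24), while the regulator *Srebf2* (1.63) and *Pmvk*, a kinase of the mevalonate pathway (1.52), rose. In KpCKO cells 17 of the 23 were higher and 1 lower in M1, with a median of 0.97, against 24.8% and 25.4% of all genes there. Whether the list responded differently in the 2 genotypes was not tested. Among 15 LXR targets and genes of lipid handling, 4 were higher (26.7%) and 6 lower (40.0%), against the same shares of all genes. *Abca1*, which exports cholesterol, fell from 3.45 and 3.35 to 1.37 and 0.17 (difference −2.63), and *Scd2*, a fatty acid desaturase, fell by 1.56.

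Lysosomal genes were lower more often than higher, 17 against 5 of 32, with 10 falls of more than 2-fold and no rise of that size, against 28.7% lower and 14.3% fallen among all genes. Their median was −0.37, or −1.04 under quantile normalization. *Sgsh*, a sulfatase that degrades heparan sulfate, went from 4.45 and 4.40 to −1.27 and −1.66 (difference −5.89, SE 0.27), and its other probe had −2.71. *Atp6v0d2*, a proton pump subunit, fell by 2.44. *Lipa*, the acid lipase that frees cholesterol in lysosomes, went from 5.43 and 5.28 to 3.87 and 2.33 (difference −2.26), and *Npc1*, which moves that cholesterol out, from 2.81 and 2.17 to 0.94 and 0.10 (difference −1.97). Named after their values were seen, *Manba* (−1.89), *Galc* (−1.44), *Neu1* (−1.13) and *Ctsl* (−1.09) fell too. *Ppt1* was higher by 0.69, and *Ctsz* was higher by 0.86 but had −0.02 under quantile normalization. The motif TCACGTG, which TFEB-type factors bind, was in 7 of 27 matched promoters of the list against 5.59% of all. A chromosome was left out of the sequences shown. Outside it, *Sgsh* was the only matched member fallen more than 2-fold that held the motif in the 250 bases before the start. Whether the motif went with the falls of the list was not tested. The promoter of *Sgsh*, the member with the largest fall, is shown with its match in capitals (chr11:119355511-119355760, minus strand).
Sgsh: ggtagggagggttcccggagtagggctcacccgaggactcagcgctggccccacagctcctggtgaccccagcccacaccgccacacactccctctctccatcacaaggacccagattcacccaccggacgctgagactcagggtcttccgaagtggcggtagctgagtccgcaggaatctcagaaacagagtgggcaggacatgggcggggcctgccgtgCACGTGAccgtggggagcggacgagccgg
The transcripts of *Tfeb* and *Tfe3*, whose products bind this motif, had log2 differences of 0.00 and 0.14 and did not pass the test, and they were named after their values were seen.

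Of 19 FoxO factors and targets, 8 were lower (42.1%) and 5 higher (26.3%), against 28.7% and 34.5% of all genes. *Sesn1*, a stress-induced inhibitor of mTORC1 signalling, had log2 levels of 5.40 and 5.45 in Con and 0.67 and 0.52 in M1, a difference of −4.83 (SE 0.15) that its 3 probes shared within 0.1. *Trp53inp1* fell by 2.56 and *Pdk4*, which blocks pyruvate oxidation, by 1.82. *Btg1* (1.73) and the repressor *Bcl6* (1.11) rose. *Klf2* rose by 1.65 on its brighter probe, but the other had −1.94 and the mean of both −0.15. In the list of 26 genes of TGF-β, BMP and Wnt signalling, 7 were lower (26.9%, near the share of all genes) and 12 higher (46.2%). The TGF-β branch held falls of *Smad3* (−2.61), the inhibitor *Smad7* (−1.80) and the receptor *Tgfbr2* (−1.70), and *Smad1*, of the BMP branch, was lower at −0.88. *Fzd1*, a Wnt receptor (4.47), and *Acvr1*, a BMP receptor (1.99), rose.

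The rises were largest among interferon-induced and inflammatory genes. *Cxcl9*, an IFNγ-induced attractant of T cells, rose from −5.07 and −3.71 in Con to 8.99 and 9.31 in M1, a log2 difference of 13.54 (SE 0.35, adjusted p = 3.1e-06). *Il6*, the acute-phase cytokine, rose from −6.37 and −5.38 to 6.66 and 7.90 (difference 13.16, SE 0.49). The other 8 of the 10 largest among genes detected on all 4 arrays had differences of 9.36 to 10.84, namely the protease inhibitor *Serpina3f*, the GTPases *Iigp1* and *Gbp5*, the activation marker *Cd69*, the DNA-binding *Ifi205*, the costimulator *Cd40*, complement factor B (*Cfb*) and *Acod1*. The GTPases *Gbp4* (12.39) and *Gbp6* (11.33), named after their values were seen, were above background on 1 Con array only. From background on both Con arrays, *Clic5* was at least 1011-fold higher, *Ifnb1*, interferon β, at least 951-fold, the repressor *Gfi1* at least 595-fold and *Gbp2b* at least 389-fold. *Cd247*, a T cell receptor chain, was at least 408-fold higher by its brighter probe, while its other probe had a log2 difference of 4.49. Of the 6 T cell markers, *Lck* was above background on all 4 arrays, *Cd3e*, *Cd3g* and *Cd2* on some, and *Cd3d* and *Cd8a* on none.

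Of 18 inflammatory cytokines, 17 were higher (94.4%) and 1 lower, against 34.5% and 28.7% of all genes. Their median was 4.59, or 4.13 with genes at background set at their bound and 2.60 after normexp. *Il1a* rose by 8.90, *Tnf* from 0.72 and 0.84 to 8.12 and 8.20 (difference 7.38) and the IL-1 receptor antagonist *Il1rn* by 7.13. The member that was lower was the anti-inflammatory *Il10*, with −3.64 and −3.01 in Con and −4.43 and −3.78 in M1 (difference −0.78, adjusted p = 0.0046). This is less than 2-fold and missed the threshold under 2 of 17 alternatives. Under IL-4, against the same Con arrays, *Il10* had −0.81 (limma, adjusted p = 0.018). Of 21 chemokines, 17 were higher (81.0%) and 3 lower (14.3%), against the same shares of all genes. *Cxcl10* rose from −1.50 and 0.89 to 8.92 and 9.03 (difference 9.28, SE 0.84), *Ccl12* by 8.49 and *Ccl5* by 7.39. *Cxcl14* fell from 3.38 and 3.18 to 1.29 and 0.64 (difference −2.31). *Cxcl12*, the ligand of the receptor encoded by *Cxcr4*, fell from −0.10 and −0.28 to −1.70 and −2.02 (difference −1.67), with −0.88 by its other probe. Transcripts of ligand and receptor of this axis were thus both lower, and whether in the same cells was not tested.

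All 22 antiviral genes and all 15 interferon-inducible GTPases measured rose more than 2-fold, against 14.2% of all genes, with medians of 4.55 and 6.82. *Oasl1*, which curbs translation of *Irf7*, rose by 9.18, *Zbp1*, a nucleic acid sensor, by 6.81, the ubiquitin-like *Isg15* by 6.30 and *Rsad2*, viperin, by 6.26. *Tgtp1* rose from −2.10 and −0.66 to 7.76 and 7.93 (difference 9.23) and *Gbp2* from −0.08 and 0.66 to 8.96 and 9.62 (difference 9.004). Under IL-4, against the same Con arrays, the medians were −0.98 and −0.23, and *Rsad2* had −2.63 and *Cxcl10* −3.20. The interferon-stimulated response element, searched as GAAANNGAAA on both strands, was in 10 of 17 matched antiviral promoters and 8 of 9 of the GTPases, against 3.07% of all genes, 6.71% of those that rose and 1.85% of those that fell more than 2-fold. A chromosome was left out of the sequences shown. Outside it, the promoters with the largest rises among members of the chemokine, antiviral and GTPase lists that hold the element before the start are given, with the motif in capitals. They are *Gbp5* at chr3:142496684-142496933 (plus strand), *Cxcl10* at chr5:92348890-92349139 (minus strand) and *Tgtp1* at chr11:48992247-48992496 (minus strand).
Gbp5: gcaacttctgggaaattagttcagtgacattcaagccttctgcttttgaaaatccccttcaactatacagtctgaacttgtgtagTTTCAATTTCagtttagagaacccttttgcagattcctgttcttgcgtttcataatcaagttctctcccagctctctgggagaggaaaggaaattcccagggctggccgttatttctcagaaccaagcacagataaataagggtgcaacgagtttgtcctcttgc
Cxcl10: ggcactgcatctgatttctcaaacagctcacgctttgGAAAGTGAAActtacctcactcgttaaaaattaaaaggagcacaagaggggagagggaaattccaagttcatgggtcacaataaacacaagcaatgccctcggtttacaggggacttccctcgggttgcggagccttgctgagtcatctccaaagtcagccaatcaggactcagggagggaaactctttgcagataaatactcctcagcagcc
Tgtp1: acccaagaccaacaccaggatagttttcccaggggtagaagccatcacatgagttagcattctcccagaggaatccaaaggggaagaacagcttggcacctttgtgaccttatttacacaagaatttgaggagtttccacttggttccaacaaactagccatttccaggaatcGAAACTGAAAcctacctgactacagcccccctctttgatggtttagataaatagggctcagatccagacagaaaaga
*Gbp5* carries the element on the opposite strand from the other two, and each holds 1 match in the stretch shown.

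All 21 genes of antigen presentation and costimulation rose more than 2-fold, against 14.2% of all genes, with a median of 2.84, or 1.91 after normexp. The PD-1 ligand *Cd274* rose by 6.14, the peptide transporter *Tap1* by 5.33 and *Nlrc5*, the transactivator of MHC class I, by 5.06. Of 19 NF-κB factors and feedback inhibitors, 18 were higher (94.7%) and none lower, against 34.5% and 28.7% of all genes. Their median was 3.28. *Socs1*, an inhibitor of JAK kinases, rose from −0.92 and −0.91 to 7.75 and 7.91 (difference 8.74, SE 0.19), *Traf1* by 7.05, *Socs3* by 6.54 and the deubiquitinase *Tnfaip3* by 5.19. *Socs1* also had 6.18 under IL-4. Of 17 glycolysis genes, 15 were higher (88.2%) and none lower, against the same shares of all genes. Their median was 1.44, or 0.59 under quantile normalization and 0.51 after normexp. *Pfkp*, a phosphofructokinase, rose from 1.01 and 0.95 to 5.44 and 5.52 (difference 4.50, SE 0.09), the glucose transporter *Slc2a1* by 3.14, *Hif1a*, its regulator in low oxygen, by 2.63 and the lactate exporter *Slc16a3* by 2.51.

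Of 24 markers of alternative activation, which IL-4 raised with a median of 4.24, 9 were higher (37.5%) and 2 lower (8.33%) in M1. Among all genes the shares were 34.5% and 28.7%. *Slc7a2*, a transporter of arginine, rose by 6.54 and had 4.65 in M2, and *Cish*, an inhibitor of cytokine signalling, rose by 5.76 and had 6.92 in M2. *Ccl24* rose by 4.49 and had 5.53. *Myc* and *Pparg* fell in M1, *Myc* from −0.26 and −0.46 to −2.56 and −2.31 (difference −2.08, with −0.8 by its least changed probe), whereas it had 2.31 in M2. The iron importer *Tfrc* was split in the same way, −1.90 in M1 and 2.72 in M2.

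Of 14 genes often used as a reference, 8 were higher (57.1%) and 3 lower (21.4%), against 34.5% and 28.7% of all genes. By more than 2-fold, 3 of the 14 rose and 3 fell, 21.4% each, against 14.2% and 14.3%. The median of the 14 was 0.38, which became −0.22 under quantile normalization and −0.28 after normexp. *Tfrc* fell by 1.90 and *Gusb* by 1.09, and *Gapdh* rose from 5.92 and 5.78 to 7.14 and 7.05 (difference 1.25, or 0.36 under quantile normalization), as did *Ywhaz* (1.25). The 24 genes of the cytosolic ribosome had a median of 0.13, which became −0.67 under quantile normalization and after normexp, and none rose or fell more than 2-fold.

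**Figure D3:**
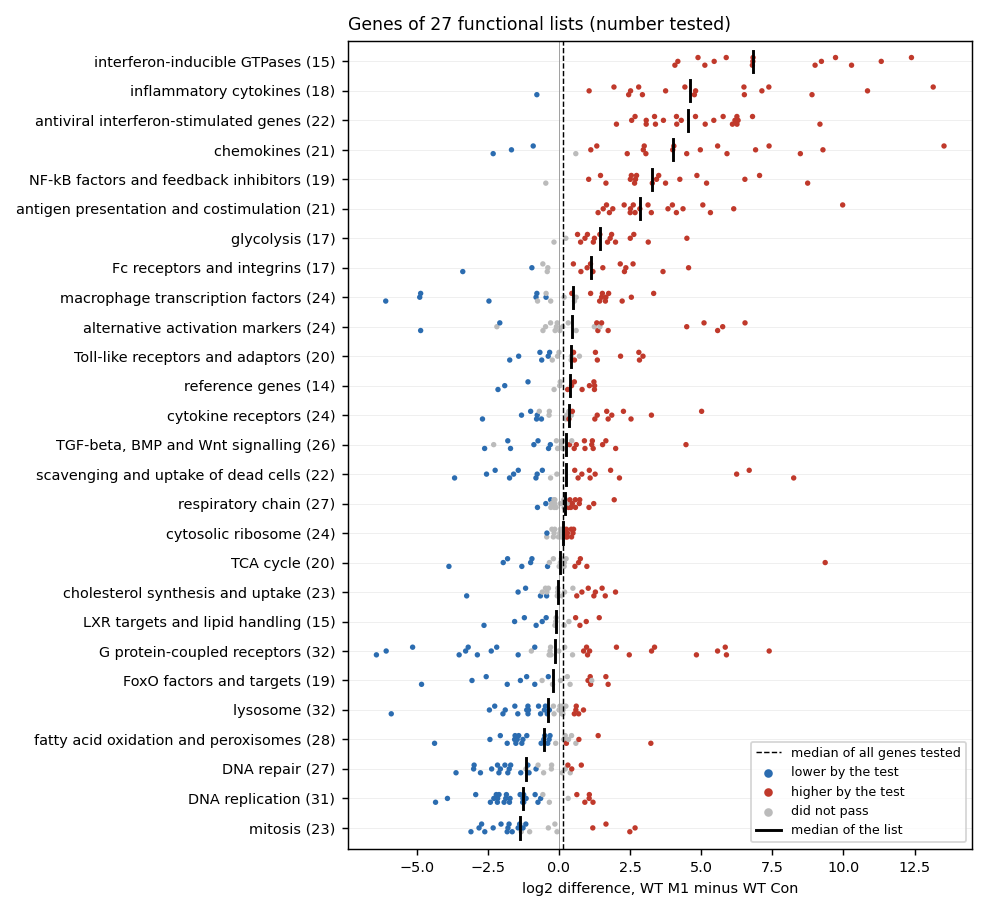
Log2 difference between WT M1 and WT Con (horizontal axis) of the genes of 27 lists, 1 row per list and 1 point per gene, coloured by whether limma called it lower (blue), higher (red) or neither (grey), with a bar at the median of the list and a dashed line at the median of all genes (0.13). The medians run from 6.82 for the interferon-inducible GTPases to −1.38 for mitosis, next to −1.27 for DNA replication and −1.16 for DNA repair.

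Symbols that share a stem, chosen after the values were seen, gave a coarse view beyond the lists, to be read against 14.3% of all genes fallen and 14.2% risen more than 2-fold. Of 33 *Kif* genes, the kinesins, 18 fell and 3 rose more than 2-fold, with a median of −1.41, or −1.29 with genes at background set at their bound and −0.73 after normexp. Of 307 *Zfp* genes, mostly zinc finger proteins, 70 fell (22.8%) and 17 rose (median −0.42, or −0.39 with bounds). Among 39 *Abc* transporters 14 fell and 4 rose (median −0.50, or −0.48 with bounds and −0.91 under quantile normalization), and among 10 *Acad* genes, the acyl-CoA dehydrogenases, 4 fell and none rose (median −0.98). Of 49 *Psm* genes of the proteasome none fell and 13 rose (median 0.66, or 0.16 under quantile normalization), and 15 of 22 *Ifi* genes rose and none fell (median 3.34). The solute carriers (*Slc*) had 52 falls (18.3%) and 43 rises (15.1%) among 284.

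Promoter make-up was described for both directions. Windows with fewer than 5 CG dinucleotides made up 9.38% of the genes that fell, 20.3% of those that rose and 14.6% of all, and the median number of CG was 19, 17 and 19. TATAAA was found in 7.42%, 11.9% and 9.3%. For the κB motif the shares were 9.87%, 11.8% and 9.84%, and it was in 8 of 17 matched promoters of the NF-κB list. These shares are descriptions and were not tested.

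The same stimulus moved most of these genes in KpCKO cells as well. Of the 3194 falls, 2970 (93.0%) were lower by limma's test in KpCKO M1 than in KpCKO Con, with a median of −1.44, and 2873 (90.8%) of the 3164 rises were higher, with a median of 1.48. Among all genes the shares were 25.4% lower and 24.8% higher in KpCKO. The response differed between WT and KpCKO for 16 of 22354 genes (0.0716%) by limma at an adjusted p of at most 0.05. With 2 arrays a group, a gene that did not pass cannot be taken as responding alike. By that adjusted test, 8 of the falls and 5 of the rises differed. These genes were picked by their change in WT, which enters the difference itself. *Cebpa* had −4.89 in WT and −2.38 in KpCKO. In M2 cells, whose 1835 lower genes made up 8.2% of those tested and 1929 higher ones 8.62%, the genes that fell in M1 had a median of −0.21 and those that rose 0.07. Set against M2 directly, 6555 genes were lower in M1 (29.3%) and 7532 higher (33.7%).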

How the data were processed

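RNA of 6 groups of 2 cultures was hybridized to 1-colour Agilent arrays of 41174 probes. Spots were extracted by the authors, who used Agilent Feature Extraction 10.7.3.1 and deposited background-subtracted intensities, which are not scaled between arrays, with flags for spots well above background. They also deposited log2 values normalized with GeneSpring, which on 40749 shared probes match log2 of the intensities minus each array's 75th percentile, centred per probe, with slopes of 0.9997 to 1.0004.

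Outlier spots were dropped, spots of a probe averaged, and log2 intensities taken relative to the 75th percentile of the array. Accessions matched 26690 probes to 18217 RefSeq symbols, and the others kept their identifiers, for 32301 genes or transcripts in all. Each was read from its brightest probe. Of these, 22367 were detected on both arrays in 1 or more groups, and 22356 could be tested. limma 3.58.1 in R 4.3.3 was fitted to all 12 arrays with group and culture as terms (5 residual and 1.92 prior degrees of freedom), at a Benjamini-Hochberg adjusted p of 0.05. An "at least" fold divides the mean of the brighter group by that of the dim group, where each dim array enters at its lowest signal of a detected probe, or at the signal of the gene if that was higher. With 2 arrays a group, the lowest exact p is 0.333, so no such test was used. The number of arrays limits the precision. On simulated data of 22084 genes for M1 against Con in WT, limma recovered 78% of falls and 86% of rises of 4-fold. For falls and rises of 2-fold it recovered 54% and 60%. Whether these rates hold for the measured arrays was not tested.

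Arrays were paired by culture from the replicate number in the labels and the description of the series, by which each culture took samples from 1 WT and 1 KpCKO mouse. The deviations of the arrays from their group means correlated between groups of the same culture at 0.162 to 0.597 in 15 pairs of groups. The median was 0.342, and the pair used here, WT Con with WT M1, had 0.195. The genes named are the 20 largest falls and 10 largest rises well above background on the 4 arrays, the 5 largest bounds each way, up to 4 members of each of 27 lists with the largest change plus up to 2 that went against the list's median, and the macrophage markers. The members and lists were chosen with earlier results of these data known. List members to which no probe was matched by accession, such as *Il12b*, *Mx1* and *Nfkb1*, were not analysed here, and some genes that the rule names are not reported here. Promoter windows came from RefSeq tables of build GRCm38.p6 for 11676 of 14645 tested genes with a symbol, and they were read with Python 3.11.15, pandas 2.3.3 and numpy 2.4.6. The alternatives were other scalings, background corrections, filters, choices of probe, blocks, sets of arrays and priors, an unpaired t-test as in the methods, and each replicate left out.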

Additional observations from a re-analysis of the deposited data

How the results depend on the processing

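The counts of genes higher (7722), lower (6410), risen (3164) and fallen (3194) more than 2-fold stayed within 1.5 times under the alternatives, with these exceptions. After normexp 1823 rose (2199 fell, which is within that limit). With no filter on dim probes 11917 were higher. The methods' t-test after Benjamini-Hochberg gave 1560 higher, 1382 lower, 1176 risen and 1054 fallen, while at p of at most 0.05 it gave 5243 higher and 4543 lower, within that limit. Past the fold rule under every scaling, an alternative chosen after seeing the data, were 1764 rises and 1850 falls. Leaving out a replicate gave 5670 to 7679 higher, 5087 to 5799 lower, 3275 to 4765 risen and 3456 to 3736 fallen, with 4765 risen without WT M1 culture 1, the lone M1 array then being assumed to vary like the other groups. Without the replicate block by culture 6450 were higher, 5375 lower, 3062 risen and 3118 fallen, and with a replicate block by mouse 7763, 6546, 3168 and 3210. Higher genes were 54.6% of those called, 45.2% under quantile normalization, 49.7% with spike-ins and 66.1% with no filter.

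Of the called genes named by the rule, 22 missed the threshold under some alternative. Quantile normalization and normexp moved the medians of several lists, as given beside them. The sign turned with the mean of probes for *Bub1* (−0.19) and *Klf2* (−0.15), under quantile normalization for *Ctsz* (−0.016), *Rplp1* (−0.39), *Rpl8* (−0.35), *Rplp0* (−0.49), *Rps20* (−0.50) and *Adgre1* (−0.13), and after normexp for *Abcg1* (−0.080), *Rplp1* (−0.48), *Rpl8* (−0.39), *Rplp0* (−0.36), *Rps20* (−0.44), *Adgre1* (−0.062) and *Itgam* (−0.023). The cause was not tested. Signal over background limits the falls: the 555 genes at background on both M1 arrays have no measured size.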
